A study of Mus musculus with 17 samples.

Results

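Mmp12 Ear2 cells are skin myeloid cells chosen by a gate on unique molecular identifiers (UMIs, 1 per captured RNA molecule): at least 3 of Mmp12 and Ear2 together, at least 1 of Csf1r and at most 2 of Folr2, Cbr2 and Ccl8 together. Cells also needed at least 200 genes and at most 20% of UMIs from mitochondrial genes. The gate held 3077 of 30085 skin cells kept, and 91829 cells were kept over all libraries of the series. Levels of the 6 gate genes were set by this choice and are given as description, without a test.

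Mice of every group carried PDGFRb-Cre and the Z/EG reporter, entered the experiment at 8 weeks of age and, by the methods of the study, were killed 1 week after the last injection. Skin was digested with Liberase TM and cells were sorted for GFP, so the cells had, or descended from cells with, activity of the Pdgfrb promoter, which also drove Cre in leukocytes in this model. As described for the study, SARAWT mice had no SARA transgene, and SARATg mice carried human ZFYVE9, which encodes SARA (Smad anchor for receptor activation), behind a stop cassette that Cre removes. Bleomycin at 20 mg/kg or PBS was injected under the skin for 2 weeks, 3 times a week by the labels and daily by the methods of the study. Droplet libraries (10x Genomics 3′ v3) were made from 3 SARAWT PBS, 3 SARAWT bleomycin, 1 SARATg PBS and 1 SARATg bleomycin samples, and the labels do not say whether each came from 1 mouse, so p-values measure the spread between libraries.

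Mmp12 encodes macrophage elastase, a secreted metalloproteinase that degrades elastin, and Ear2 a ribonuclease of the eosinophil-associated family that monocytes and macrophages also make. Csf1r is the receptor for the growth factor that most macrophages need. Skin holds long-lived resident macrophages with Folr2, Cbr2 and Ccl8, dendritic cells with Flt3 that carry antigen to lymph nodes through Ccr7, and cells that arise from blood monocytes with Ly6c2 and Ccr2. In lung repair and in allergic tissue, monocyte-derived cells make lipoprotein lipase (Lpl), the lectin Mgl2 and the secreted resistin-like protein Retnla.

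Totals ran from 3355217 UMIs in SARAWT PBS 2 to 69765525 in SARATg bleomycin, with between 781 and 6548 cells kept per library. The gated cells of a library held 409903 to 16366367 UMIs. Mouse Zfyve9 was at 474 counts per 1000000 UMIs of the gated cells (CPM) in the library labelled SARAWT PBS 3, against 277 in SARATg PBS, 154 in SARATg bleomycin and 0 to 15.5 in the other 5, so that library went against its label. Human ZFYVE9, listed only in libraries 1 and 2 of both SARAWT groups, was at 696 CPM in the gated cells of the library labelled SARAWT PBS 1, 209 in PBS 2 and 76.1 and 76.4 in bleomycin 1 and 2. Reads of the human gene in these 4 libraries went against the label SARAWT as well, so that 5 of the 6 libraries labelled SARAWT did. No other library lists the human gene, so its level with or without the transgene is not known here. SARAWT is used below as a label and not as a checked genotype. Without barcodes that occurred in another skin library, an alternative added after seeing the data, human ZFYVE9 was at 696, 482, 68.0 and 74.7 CPM in the gated cells of PBS 1, PBS 2 (22 UMIs) and bleomycin 1 and 2. In SARAWT PBS 2, 24 of 32 gated cells (95% Clopper-Pearson interval 56.6% to 88.5%) had a barcode that also occurred in another skin library, against 17.9% and 20.3% in SARAWT bleomycin 1 and 2 and at most 1.08% in the other 5.

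Within the gate, Mmp12 (ENSMUSG00000049723, GRCm38 chromosome 9, 7344381 to 7369499) had a lowest, median and highest library level of 656, 888 and 1252 CPM. Ear2 (ENSMUSG00000072596, chromosome 14, 44102654 to 44103534) had 548, 694 and 920.4 CPM. Mmp12 and Ear2 together had a median of 19 UMIs per cell, with a highest value of 819. At the edge of the gate, 160 cells had exactly 3 UMIs of the pair, and 196 cells that met the other conditions had 2 and stayed outside. At the other limit, 92 gated cells had 2 UMIs of Folr2, Cbr2 and Ccl8, and 25 cells with 3 stayed outside. The 3077 cells were not alike in the 2 genes that chose them: 318 had Mmp12 alone (at least 3 UMIs, Ear2 at 0), 733 had Ear2 alone (at least 3 UMIs, Mmp12 at 0) and 2026 had both, of which 1510 had at least 3 UMIs of each.

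Lpl and Mgl2, markers that did not enter the gate, were present in the gated cells of every library. Cells were thinned to 2000 UMIs, which left out 14 gated cells and 30 T cells of lower depth. Lpl was then detected in 18.8% to 41.4% of gated cells per library and in at most 0.795% of T cells, which should lack it. Mgl2 was detected in 75.5% to 84.4% of gated cells, against at most 1.20% of T cells. Before thinning, Lpl was detected in 48.5% of gated cells and Mgl2 in 92.5%, as means over libraries, at median depths of 11177 to 20306 UMIs (T cells 6038 to 8734). Origin from monocytes was not measured here, so the cells are called by their 2 leading genes. Summed over a marker list, eosinophil genes held 7.43 to 166 CPM (6.28 to 55.6 in all kept cells, with the highest gated value in SARAWT PBS 2), mural cell genes 6.39 to 30.4 CPM and melanocyte genes at most 4.07 CPM. The eosinophil value of SARAWT PBS 2 was that of Alox15 alone. Neutrophil genes held 10.9 to 360.2 CPM (102 to 2492 in all kept cells) and T cell genes 154 to 514 CPM (194 to 874). Pdgfrb itself had 1.14 to 6.49 CPM. Fibroblast genes held 7270 CPM in SARATg PBS and 102 to 1397 CPM in the other 7 libraries, keratinocyte genes 467 CPM in SARATg PBS and 30.4 to 143 CPM in the others, and muscle genes 476 CPM in SARATg PBS and 12.7 to 147 CPM in the others. Dendritic cell genes held 1446 to 2113 CPM over 18 genes, above the 997 to 1295 CPM of all kept cells, and Langerhans cell genes held 139 to 311 CPM over 5 genes, against 129 to 285.

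The share of kept cells that passed the gate was 5.59% in SARAWT PBS 1, 4.10% in PBS 2 and 11.3% in PBS 3, and 6.50%, 10.0% and 7.65% in SARAWT bleomycin 1 to 3. The groups overlapped, with means of 6.98% ± 3.78 (SD, n = 3) after PBS and 8.05% ± 1.79 (SD, n = 3) after bleomycin. A difference of 1.07 percentage points was within the spread of the libraries (two-sided exact permutation test, p = 0.7, where 0.1 is the smallest that 3 against 3 allows). It rested on SARAWT PBS 2, without which it was -0.374, and it turned to -2.55 points among cells with Csf1r and to -0.222 among cells with Ptprc. Without SARAWT PBS 1 it was 0.374, without PBS 3 3.21, without bleomycin 1 1.85 and without bleomycin 2 0.0903. In single SARATg libraries the share was 13.2% after PBS (95% Clopper-Pearson interval 12.2 to 14.2, which covers counting error only) and 16.2% after bleomycin (15.2 to 17.2). Cells with at least 3000 UMIs were also thinned to 3000 each, and shallower cells left the count. This kept 287 of 781 cells in SARAWT PBS 2 and 4207 of 5165 in SARATg bleomycin. The SARAWT means were then 3.49% and 3.59%, and the SARATg values 4.64% and 7.13%.

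Cells with Mmp12 alone made up 5.70%, 6.25% and 11.7% of the gated cells in SARAWT PBS 1 to 3 and 14.3%, 12.0% and 12.97% in SARAWT bleomycin 1 to 3. Every bleomycin library lay above every PBS library, with means of 13.1% ± 1.16 and 7.88% ± 3.31 (SD, n = 3 each). The split uses the genes of the gate and is given as description, without a test. The SARATg libraries had 6.31% after PBS and 11.1% after bleomycin. The 3 PBS values rest on 13, 2 and 61 cells, and gated cells were deeper after bleomycin (medians of 18985 to 20306 UMIs) than after PBS (11177 to 17352). Leaving out the libraries labelled SARAWT PBS 1 and 3 left 6.25% in 1 PBS library, 6.83 points below the bleomycin mean. Cells with Ear2 alone were 30.7%, 31.3% and 23.4% after PBS and 29.3%, 25.3% and 20.2% after bleomycin, and these groups overlapped.

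**Figure D1:**
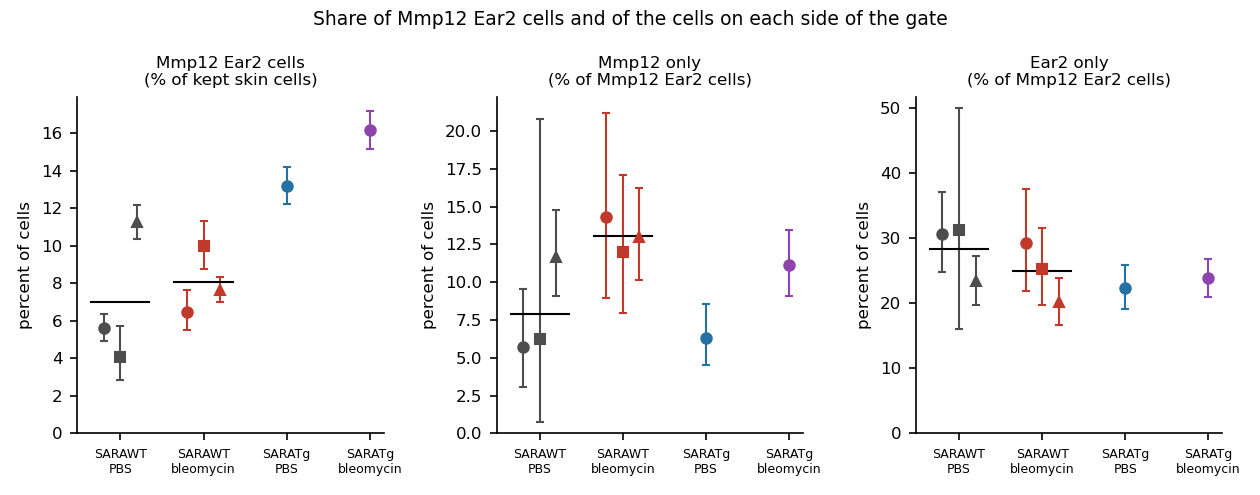
Share of Mmp12 Ear2 cells among kept skin cells (left), and of cells with Mmp12 alone (middle) or Ear2 alone (right) among Mmp12 Ear2 cells, in percent, for 8 libraries. Circles, squares and triangles are libraries 1, 2 and 3 of a group, bars are 95% Clopper-Pearson intervals for counting error and lines are means of the SARAWT groups. The 3 SARAWT bleomycin libraries lie between 12.0% and 14.3% for Mmp12 alone, above the 3 SARAWT PBS libraries, and SARATg bleomycin is at 11.1%, below SARAWT PBS 3 at 11.7%.

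Each library also held cells for comparison from the same sort. Resident-type macrophages (2413 cells) had at least 3 UMIs of Folr2, Cbr2 and Ccl8, at least 1 of Csf1r and at most 2 of Mmp12 and Ear2. Monocytes (1327 cells) had at least 3 of Chil3 and Ly6c2, at least 1 of Csf1r and no Cxcr2. Dendritic cells (3029 cells) had at least 2 of Cd209a and Flt3 and at most 2 of Chil3 and Ly6c2. Both classes had at most 2 of Mmp12 and Ear2 and at most 2 of Folr2, Cbr2 and Ccl8. Classes were set by gates, so a gene that travels with a gate gene differs between them by the way cells were chosen, and gate genes were left out of the tests (edgeR quasi-likelihood test on summed UMIs with library as a block, adjusted p by Benjamini-Hochberg at 0.05). The classes were shallower or overlapped in depth with the gated cells, with library medians of 6483 to 13280 UMIs for Folr2 macrophages, 8472 to 15404 for monocytes and 6850 to 20290 for dendritic cells.

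Against Folr2 macrophages, Mmp12 Ear2 cells had more RNA of most antigen presentation and dendritic cell genes and of Ccl17 and Ccl22, and less of most resident macrophage genes. Of 11729 genes, 3219 were higher (27.4%) and 3367 lower (28.7%). Lpl (ENSMUSG00000015568, chromosome 8, 68880491 to 68907448), which frees fatty acids from lipoproteins, had 163, 609.8 and 999 CPM as lowest, median and highest of 8 libraries, against 192, 363 and 442 CPM in Folr2 macrophages. These ranges overlapped through SARAWT PBS 2, the only library in which Lpl was lower in the gated cells (log2 fold change 1.12 ± 0.26 SE, adjusted p = 0.00257). Of 22 lipid handling genes 5 were higher and 9 lower, with a median log2 fold change of -0.53. Ccl17, a ligand for CCR4 on T cells, had 46.7, 89.3 and 155 CPM against 0, 0.291 and 0.733 CPM, with no overlap. Ccl22, the other CCR4 ligand, was also higher in all 8 libraries (log2 fold change 5.01 ± 0.20 SE, adjusted p = 2.37e-09), as was Alox15, a lipoxygenase (5.91 ± 0.32 SE, adjusted p = 1.97e-08). Both ligands belong to a list of 23 chemokines and receptors of which 7 were higher and 11 lower, with a median log2 fold change of -0.82. Retnla was higher in 7 of 8 libraries, with overlapping ranges of 1079.8 to 5327 and 116 to 3743 CPM (log2 fold change 2.33 ± 0.45 SE, adjusted p = 0.000834).

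Of 19 resident macrophage genes tested, 17 were lower and 2 higher, with a median log2 fold change of -3.47 (-0.0482 over all genes). Stab1, a scavenger receptor, had a median of 2.63 CPM against 237, and C1qb, a complement subunit, 377 against 2783, each lower in 8 of 8 libraries. Apoe, which packages lipids for export, had 189 to 972 CPM in the gated cells and 8179 to 17375 in Folr2 macrophages (log2 fold change -4.59 ± 0.15 SE, adjusted p = 4.35e-10). Igf1, an insulin-like growth factor, changed by -4.67 ± 0.19 (SE, adjusted p = 2.26e-09) and the cathepsin Ctsl by -3.24 ± 0.24 (SE, adjusted p = 3.36e-07) on the log2 scale. Their lists were mixed, with 7 of 22 growth factors and cytokines higher and 10 lower, and 5 of 18 proteases and inhibitors higher and 8 lower. Among 18 antigen presentation genes 13 were higher and 2 lower, and among 17 dendritic cell genes 12 were higher and 2 lower, with medians of 1.02 and 2.78. Csf2rb, the shared receptor chain for GM-CSF, IL-3 and IL-5, had 397, 749 and 1057 CPM against 60.6, 152 and 400.2 CPM, so the ranges touched, and 5 of 9 genes of the GM-CSF list were higher and none lower. Interferon-stimulated genes went the other way, with 16 of 19 lower and none higher. Markers of other cells differed as well: 10 of 10 fibroblast genes were lower in the gated cells (median -2.56), 7 of 10 keratinocyte genes were lower and 1 higher, and 3 of 5 Langerhans cell genes were higher and none lower. Their part in the other differences was not tested.

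Against Chil3 Ly6c2 monocytes, the gated cells had less RNA of most monocyte genes, and more of Mgl2, Lpl and Retnla. This comparison left out SARAWT PBS 2, which had 1 monocyte, and it rests on 14 monocytes in SARAWT PBS 1. Of 11067 genes 3538 passed (32.0%), of which 1914 were higher (17.3%) and 1624 lower (14.7%). Ccr2, the receptor that draws monocytes out of marrow, had a median of 319 CPM over all 8 gated samples and 399 in monocytes, and its log2 difference over the 7 shared libraries was -0.07 ± 0.11 (SE, adjusted p = 0.684), lower in 6 of 7. Of 14 monocyte genes 11 were lower and none higher. Over the 7 shared libraries Plac8, abundant in Ly6c2 monocytes, had 9.39 to 270.3 CPM against 900.4 to 2034 CPM, and Vcan, a matrix proteoglycan that monocytes make, 4.95 to 56.2 against 8.83 to 1004 CPM.

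Higher in the gated cells were Mgl2 (ENSMUSG00000040950, chromosome 11, 70130329 to 70137550), with 1158, 1524 and 1823 CPM as lowest, median and highest of the 7 libraries against 51.7, 136 and 565 CPM, and Lpl (log2 fold change 2.25 ± 0.31 SE, adjusted p = 0.000292). Retnla had at most 141 CPM in monocytes and at least 1079.8 CPM in the gated cells, a log2 difference of 7.31 ± 0.60 (SE, adjusted p = 6.68e-06). The haemoglobin scavenger receptor Cd163 was higher by 4.06 ± 0.30 (SE, adjusted p = 3.30e-06). The secreted mucin-like gene Mucl1 differed by 8.34 ± 0.21 (SE, adjusted p = 1.17e-09), though its level in the gated cells was uneven, from 105 CPM in SARATg PBS to 1329.6 CPM in SARAWT PBS 2, which did not enter the test, and thinned detection ran from 2.50% to 14.6% of cells. Of 18 alternative activation genes 11 were higher and 1 lower, and of 18 antigen presentation genes 12 were higher and 2 lower. Lipid handling genes went both ways, with 5 of 22 higher and 6 lower and a median log2 fold change of -0.26. Interferon-stimulated genes were again lower, 17 of 19, with none higher. Of markers of other cells, 4 of 5 Langerhans cell genes were higher and none lower, 2 of 8 T cell genes were higher and 3 lower, and none of 10 fibroblast genes passed. Their part was not tested.

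Against Cd209a Flt3 dendritic cells, the gated cells had more RNA of macrophage, protease and chemokine genes, while 4 of 18 antigen presentation genes were higher and 6 lower. Cd209a, which with Flt3 chose the dendritic class and so was not tested, overlapped between the classes. It had 361, 660 and 993 CPM in the gated cells as lowest, median and highest, against 409, 591 and 785 CPM in dendritic cells. Ccl22 had a median of 22.2 CPM in the gated cells and 83.6 CPM in dendritic cells, with overlapping ranges. Of 12022 genes 4614 passed (38.4%), of which 2356 were higher (19.6%) and 2258 lower (18.8%). Lpl had 163 to 999 CPM in the gated cells and 3.45 to 24.8 in dendritic cells (log2 fold change 5.42 ± 0.24 SE, adjusted p = 5.68e-08), and Retnla at most 82.0 CPM in dendritic cells (7.33 ± 0.43 SE, adjusted p = 1.94e-07). Fn1, the matrix protein fibronectin, had 359, 845 and 1426 CPM against 11.6, 44.0 and 140 CPM, with no overlap. Il1rn, the antagonist of interleukin 1, had 264 to 569 CPM against 8.47 to 89.9 CPM, and Cxcl2, a neutrophil-attracting chemokine, 1744 to 3396 CPM against 115 to 494. C1qb was higher as well (4.13 ± 0.36 SE, adjusted p = 3.78e-06), as was Alox15 (5.56 ± 0.38 SE, adjusted p = 5.56e-07).

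In the gated cells 14 of 19 resident macrophage genes were higher than in dendritic cells and 1 lower, and 17 of 23 chemokine and receptor genes were higher and 1 lower. Proteases and their inhibitors stood at 16 of 19 higher and 1 lower, growth factors and cytokines at 15 of 22 higher and 2 lower, and lipid handling genes at 15 of 22 higher and 1 lower. Mgl2 was closer, with 1158 to 2088 CPM in the gated cells and 440.2 to 1556 CPM in dendritic cells, overlapping ranges and a log2 difference of 0.93 ± 0.14 (SE, adjusted p = 0.000279), higher in 8 of 8 libraries. Of 16 dendritic cell genes 11 were lower and 3 higher. Fscn1, an actin-bundling protein of mature dendritic cells, had a median of 2.53 CPM against 128, and Itgae, the CD103 chain, 3.05 against 44.8. T cells had a median of 222 CPM of Itgae, and 5 of 10 T cell genes were lower in the gated cells than in the dendritic class and 2 higher (median -1.16), whose part in the Itgae difference was not tested. Of the eosinophil list both genes tested, Siglecf and Alox15, were higher. Ccr7, which guides dendritic cells to lymph nodes, was lower than in dendritic cells (log2 fold change -1.23 ± 0.12 SE, adjusted p = 7.68e-06) and higher than in Folr2 macrophages (4.25 ± 0.32 SE, adjusted p = 3.21e-07), with 76.0, 208 and 442 CPM in the gated cells.

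**Figure D2:**
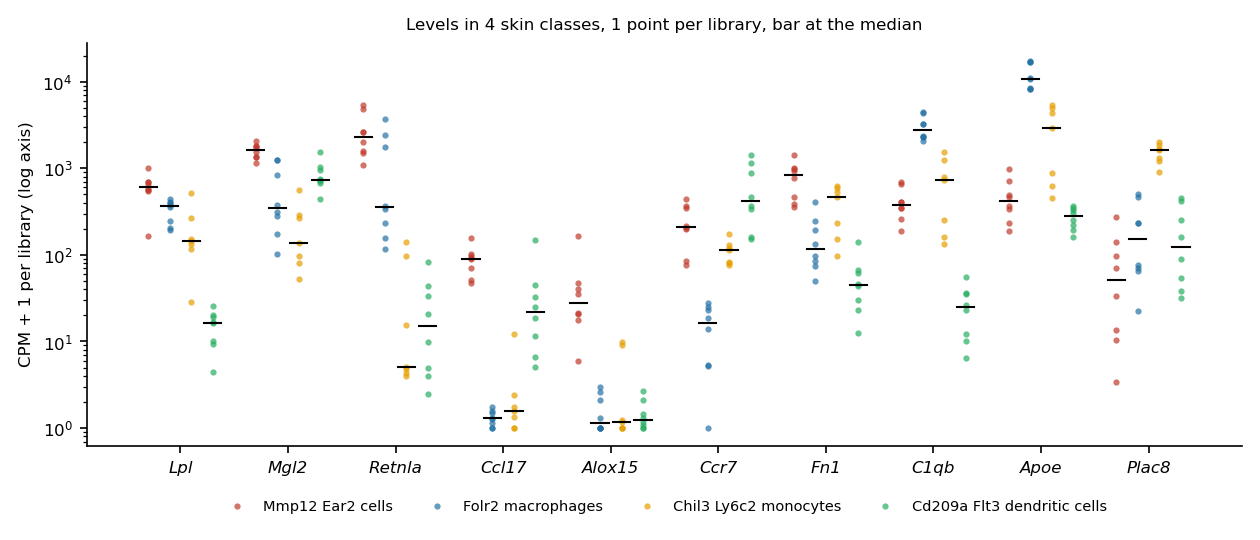
Levels of 10 genes outside the Mmp12 Ear2 gate in 4 skin classes, as CPM + 1 on a log axis, with 1 point per library (8 libraries, 7 for monocytes) and a bar at the median. Lpl, Retnla, Ccl17 and Alox15 are highest in Mmp12 Ear2 cells by median, Apoe and C1qb in Folr2 macrophages, Plac8 in monocytes and Ccr7 in dendritic cells.

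Cells with Mmp12 alone and cells with Ear2 alone were compared within 7 libraries, since SARAWT PBS 2 had 2 cells with Mmp12 alone. Both sides were set by gate genes, so a gene that travels with Mmp12 or Ear2 differs by the way cells were chosen. Gate genes were left out of the test, and the 2026 cells with both genes did not enter it. Of 8298 genes 346 passed (4.17%), of which 184 were higher in Mmp12 only cells (2.22%) and 162 lower (1.95%). On the Mmp12 side stood 9 lipid handling genes and 6 proteases and inhibitors. Trem2, a lipid-sensing receptor, had 10.1, 50.4 and 132 CPM as lowest, median and highest, against 0, 1.92 and 12.7 CPM on the Ear2 side (log2 fold change 4.06 ± 0.55 SE, adjusted p = 0.00304), and was higher in 7 of 7 libraries. Gpnmb, a glycoprotein of lysosome-rich macrophages, had 12.0, 64.3 and 469 CPM against 0, 5.89 and 11.9 (3.83 ± 0.67 SE, adjusted p = 0.0105). Apoe (2.49 ± 0.36 SE, adjusted p = 0.00426) and Ctsl (2.34 ± 0.36 SE, adjusted p = 0.00610) were higher in 7 of 7 libraries as well. Of 22 lipid handling genes 9 were higher and none lower (Apoe, Fabp5, Trem2, Gpnmb, Spp1, Cd9, Lgals3, Msr1 and Cd63), and of 17 proteases and inhibitors 6 were higher and none lower (Mmp9, Mmp13, Mmp14, Ctss, Ctsl and Timp1). Mmp14, a membrane-bound collagenase, had 45.2 to 111 CPM against 2.12 to 25.9 CPM with no overlap, and Mmp13, a secreted collagenase, was higher in 6 of 7 libraries (3.50 ± 0.60 SE, adjusted p = 0.00977). Not all of these were particular to Mmp12 only cells. Median Apoe was 1828 CPM there, 2934 in monocytes and 10852 in Folr2 macrophages. In the same order Ctsl had 617, 1031 and 1365, Mmp14 75.3, 82.9 and 77.5, and Trem2 50.4, 10.8 and 62.1. Gpnmb had 64.3, 12.8 and 37.9, and Mmp13 55.7, 7.14 and 10.4.

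H2-M2, a nonclassical class I gene, was higher with Mmp12 alone in 7 of 7 libraries, with 45.4, 172 and 403 CPM against 1.06, 4.26 and 13.4 (log2 fold change 4.85 ± 0.32 SE, adjusted p = 1.81e-05). The scavenger receptor Marco (2.85 ± 0.47 SE, adjusted p = 0.00835) and the membrane protein Ms4a7 (3.09 ± 0.32 SE, adjusted p = 0.000545) were higher in 7 of 7 libraries. Langerhans cell genes were on the Mmp12 side too, 3 of 4 tested (Cd207, Epcam and Cdh1), with a median log2 fold change of 2.71 (0.00636 over all genes). Cd207, the langerin gene, had 0 to 372 CPM against 1.44 to 28.4 CPM and was higher in 6 of 7 libraries. Arg1, an arginase, passed the test on 328 UMIs with Mmp12 alone against 1 UMI with Ear2 alone, so no fold is given. Thinned detection of Arg1 was 0% to 2.16% of gated cells per library and 0% to 11.1% of T cells, so its share was not above background in every library.

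On the Ear2 side stood Retnla, Il6 and Areg, while growth factors and cytokines as a list went both ways, with 3 of 21 higher with Mmp12 alone (Spp1, Il1a and Inhba) and 2 lower (Il6 and Areg). Retnla (ENSMUSG00000061100, chromosome 16, 48842551 to 48844461) had 15.1, 113 and 1698 CPM in Mmp12 only cells and 3022, 4931 and 11620.0 CPM in Ear2 only cells. The ranges did not overlap, and the log2 fold change was -4.60 ± 0.72 (SE, adjusted p = 0.00702). Il6, a proinflammatory cytokine, had 30.1 to 82.4 CPM against 60.4 to 414 CPM and was lower in Mmp12 only cells in 7 of 7 libraries (-1.90 ± 0.24 SE, adjusted p = 0.00167). Cd226, an adhesion receptor, changed by -2.07 ± 0.19 (SE, adjusted p = 0.000319) and the Fc receptor-like gene Fcrls by -2.15 ± 0.22 (SE, adjusted p = 0.000545). F13a1, a clotting factor subunit, changed by -1.54 ± 0.26 (SE, adjusted p = 0.00915), a call that was lost without shared barcodes (adjusted p = 0.0705), and complement C4b by -1.95 ± 0.44 (SE, adjusted p = 0.0307). Areg, an epidermal growth factor receptor ligand, was lower in 6 of 7 libraries (-2.20 ± 0.49 SE, adjusted p = 0.0290). Lpl did not pass the test (-0.23 ± 0.28 SE, adjusted p = 0.755), nor did Mgl2 (-0.41 ± 0.14 SE, adjusted p = 0.135), which passed only without a filter on low counts (adjusted p = 0.000508).

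**Figure D3:**
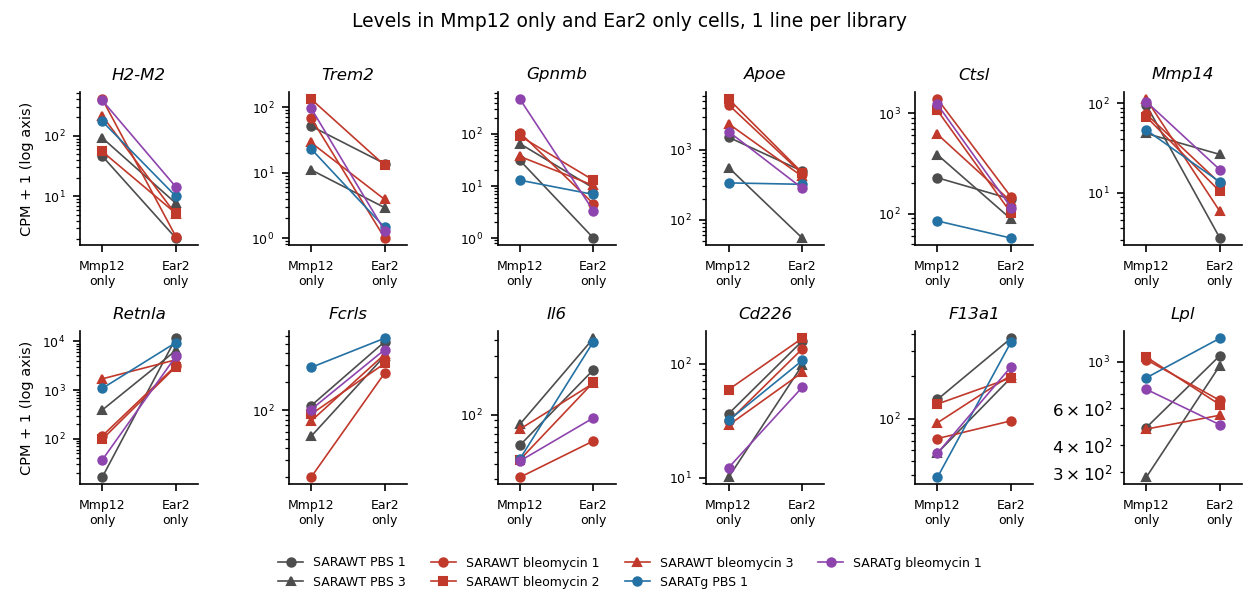
Levels of 12 genes in cells with Mmp12 alone and with Ear2 alone, as CPM + 1 on log axes, with 1 line per library (7 libraries). H2-M2, Trem2, Gpnmb, Apoe, Ctsl and Mmp14 are higher with Mmp12 alone in 7 of 7 libraries, Retnla, Fcrls, Il6, Cd226 and F13a1 are lower in 7 of 7, and Lpl goes both ways.

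Retnla was not spread evenly over the gated cells. Of all 3077 cells 66.8% had 0 Retnla UMIs and 20.4% had 20 or more, with a highest value of 2131. The 10% of cells with most Retnla held 85.3% of its UMIs, and 70.0% to 97.0% within single libraries. The median depth was 18748 UMIs in cells with 20 or more and 17429 in cells with 0 over all libraries. Within libraries the medians were nearly equal in SARAWT PBS 1 (13713 and 13714.5) and farther apart in SARAWT bleomycin 1 (23819.5 and 18709), bleomycin 3 (21578 and 18608.5) and SARATg bleomycin (21682.5 and 18167), and lower with high Retnla in SARAWT PBS 2 (5731 in 4 cells, and 12203). The cut is a position on a range and not a cell type, though only 48 cells lay between 15 and 25 UMIs. Cells with 20 or more Retnla UMIs were 38.7% of the Ear2 only cells, 16.3% of cells with both genes and 4.09% of Mmp12 only cells. By library they were 22.4%, 12.5% and 18.2% of the gated cells in SARAWT PBS 1 to 3, 12.9%, 11.1% and 18.0% in SARAWT bleomycin 1 to 3, 31.7% in SARATg PBS and 18.4% in SARATg bleomycin. T cells had thinned detection of Retnla in 0% to 4.67% of cells per library, against 16.2% to 36.0% in the gated cells.

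**Figure D4:**
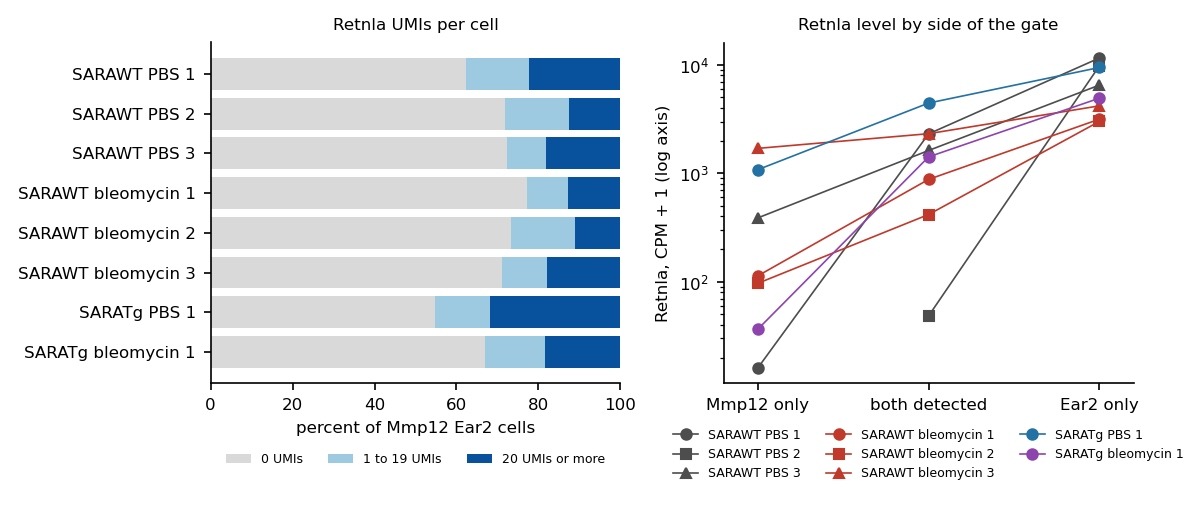
Left, percent of Mmp12 Ear2 cells with 0, 1 to 19 and 20 or more Retnla UMIs in each of 8 libraries. Right, Retnla as CPM + 1 on a log axis in cells with Mmp12 alone, both genes and Ear2 alone, with 1 line per library (SARAWT PBS 2 has no point for Mmp12 alone). Cells with 0 UMIs are 54.8% to 77.1% of each library, and each line is highest with Ear2 alone.

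Other genes differed between gated cells with 20 or more Retnla UMIs (623 cells) and with 0 (2033 cells) in the 7 libraries with at least 10 of each, given here as description since Retnla chose the cells. Only genes with the same direction in 7 of 7 libraries were listed, so that agreement was set by the choice of genes. Mean levels with high Retnla against 0 were 2547 against 280 CPM for Fn1, 2112 against 288 for the chemokine Ccl6, 1895 against 272 for Lpl and 2117 against 306 for the lysozyme gene Lyz1. Lpl thus followed Retnla per cell, while it did not pass the test between the 2 sides of the gate. F13a1 (373 against 47.3 CPM), C1qb (1042 against 260.4) and the retinoic acid-making enzyme Aldh1a2 (50.2 against 0.975) were higher as well. Lower with high Retnla were Cd207 (3.68 against 117 CPM), Ccr7 (39.5 against 302), Cd209a (141 against 748), Flt3 (1.82 against 34.0), the placental growth factor gene Pgf (6.68 against 208) and H2-M2 (11.7 against 123).

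Bleomycin was compared with PBS in the gated cells of SARAWT mice to find what differed with the treatment. In the fit of the 2 groups, 4 of 9564 genes passed (0.0418%), 3 higher (0.0314%) and 1 lower (0.0105%), and 1077 had an unadjusted p under 0.05. Libraries of the same replicate number deviated together in these same data, though the labels do not say that they were handled together. With the number as a replicate block 142 of 9985 genes passed (1.42%), 72 higher (0.721%) and 70 lower (0.701%). DESeq2 called 125. Without the libraries labelled SARAWT PBS 1 and 3, only SARAWT PBS 2 was left after PBS. Its spread had to be taken from the bleomycin group, so no count of genes is given for that fit. Of its 32 gated cells 24 had a barcode that also occurred in another skin library. Without those, 8 cells with 45413 of 409903 UMIs remained. Leaving out all 5 libraries that went against the label SARAWT would leave bleomycin 3 alone and no comparison.

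The rule for naming genes favoured groups without overlap, so a lack of overlap below adds no support. Asgr2, a subunit of the asialoglycoprotein receptor, had 14.5, 7.32 and 8.10 CPM in SARAWT PBS 1 to 3 and 98.7, 69.6 and 71.5 in SARAWT bleomycin 1 to 3. The groups did not overlap (log2 fold change 2.94 ± 0.28 SE, adjusted p = 0.0104 in edgeR, 0.0649 to 0.194 in the alternatives that lost the call). Cacna1a, a calcium channel subunit, had 0.303, 0 and 0.540 CPM after PBS and 17.7, 33.1 and 27.1 after bleomycin (5.78 ± 0.46 SE, adjusted p = 0.00760), on 6 PBS UMIs in all. Ccdc80, a secreted matrix protein, had 7.57, 7.32 and 6.05 CPM against 73.9, 56.4 and 35.1 (3.03 ± 0.34 SE, adjusted p = 0.0279). Itga1, the collagen-binding integrin alpha 1, was the gene that fell, from 55.1, 56.1 and 53.2 CPM to 14.2, 14.2 and 16.3 (-1.86 ± 0.17 SE, adjusted p = 0.0104). The other 3 calls were also lost in some alternatives, with adjusted p of 0.0502 to 0.179 for Cacna1a, 0.0847 to 0.219 for Ccdc80 and 0.0502 to 0.130 for Itga1 there, and leaving out 1 library left as few as 1 gene. Directions held in all 16 alternatives, with log2 fold changes of 2.69 to 3.44 for Asgr2, 5.57 to 9.80 for Cacna1a, 2.78 to 3.36 for Ccdc80 and -2.09 to -1.81 for Itga1. Asgr2 and Itga1 moved alike in the single SARATg libraries, where Asgr2 had 14.3 CPM after PBS and 119 after bleomycin and Itga1 46.0 and 11.8, while Ccdc80 had 43.7 and 36.8. Fibroblast genes summed to 7270 CPM in the gated cells of SARATg PBS and 506 in SARATg bleomycin. Their part in the Ccdc80 levels was not tested.

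With the replicate block, Ctss, H2-M2 and some genes of the interferon response and of monocytes rose. H2-M2 had 37.9, 29.3 and 45.4 CPM after PBS and 132, 115 and 104 after bleomycin (log2 fold change 1.57 ± 0.20 SE, adjusted p = 0.0108 with the block, 0.0696 without). Ctss, the cathepsin that trims the invariant chain of class II, had 1418, 1269 and 1188 CPM against 2289.9, 2158 and 2031 (0.74 ± 0.12 SE, adjusted p = 0.0219 with the block, 0.138 without). Ifitm3, an interferon-induced membrane protein, had 235, 129 and 364 CPM against 1342, 846 and 686 (1.99 ± 0.32 SE, adjusted p = 0.0219 with the block, 0.191 without), and Ly6e 126, 100.0 and 116 against 428, 300.4 and 266. None of these 4 overlapped between the groups, but genes were named partly for a steady direction over libraries. The share of all genes without overlap is not given here. In the SARATg libraries Ifitm3 went from 340.5 to 845 CPM, Ctss from 1056 to 1948 and H2-M2 from 39.8 to 205.

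Calls on gene lists in this paragraph come from the fit with the replicate block. Without the block, no gene of these lists passed in either direction. Of 19 interferon-stimulated genes 2 rose with the block, Ifitm3 and Xaf1, none fell, and the median log2 fold change was 1.41 (0.00685 over all genes). Of 16 monocyte genes 4 rose (Plac8, Hp, Thbs1 and Cd300lf) and none fell, with a median of 0.520. Plac8 was 1 of the 4, with 9.39, 2.44 and 32.5 CPM after PBS and 270.3, 142 and 94.8 after bleomycin (3.16 ± 0.60 SE, adjusted p = 0.0374 with the block). Over the alternatives the log2 fold change of Plac8 ran from 2.66 to 6.09. Monocytes, in which Plac8 is abundant, went from 1.73% ± 2.59 to 6.12% ± 0.801 of kept cells (SD, n = 3 each, no overlap, exact permutation test p = 0.1, the smallest possible). Predicted doublets in the gate went from 1.58% to 4.04%. Median Ly6e was 1330 CPM in monocytes (7 libraries) and 196 in gated cells (8 libraries). Ifitm3 had 2700 and 525 CPM, Ctss 2539 and 1683, and Cd163, which fell with the block, 5.40 and 112. H2-M2, which rose, had 0 and 74.4 CPM, and Il10, which fell, 81.6 and 23.0 CPM. The part of monocytes and doublets in these levels and in Plac8 was not tested. Of 22 lipid handling genes 2 rose, among them Apoe, and none fell. Of 19 alternative activation genes 3 rose and 1 fell, and of 17 proteases and inhibitors 2 rose and 1 fell. Of 18 antigen presentation genes Ctss rose and Cd83 fell, of 23 chemokines and receptors Cxcl14 rose and Cxcl1 fell, and of 22 growth factors and cytokines Thbs1 rose and Il10 fell. Of 17 resident macrophage genes Cd163 and Gas6 fell, of 17 dendritic cell genes Flt3 fell and of 8 GM-CSF list genes Marco fell, and none of these 3 lists had a gene that rose. None of 16 proliferation, 13 p53 target, 17 immediate early and stress or 16 TGF-beta pathway genes passed. Among markers of other cells, both red cell genes tested (Hba-a1 and Hbb-bs) fell, beside a summed red cell level of 14.5 to 71.2 CPM after PBS and 0.756 to 1.42 after bleomycin, and 1 of 5 neutrophil genes, Mmp9, rose, beside 10.9 to 177 CPM and 25.6 to 239 CPM. Their part in the other results was not tested. The plasma cell gene Jchain passed with the block, but its level came from 1 library, with 1529 CPM in SARAWT bleomycin 1 against 0.228 and 2.81 in bleomycin 2 and 3.

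Among the genes that fell with the block, Cd163 had 195, 254 and 155 CPM after PBS and 41.4, 64.1 and 68.8 after bleomycin (-1.77 ± 0.20 SE, adjusted p = 0.00544 with the block, 0.0876 without). Il10, an anti-inflammatory cytokine, had 25.4, 34.2 and 75.6 CPM against 5.31, 4.11 and 20.6 (-2.22 ± 0.26 SE, adjusted p = 0.00544 with the block, 0.312 without). Over the alternatives the log2 fold change of Il10 ran from -3.35 to -1.39. Flt1, a receptor for VEGF, had 72.7, 168 and 56.0 CPM against 12.7, 23.7 and 32.4, and Hpgd, which breaks down prostaglandins, 20.6, 48.8 and 34.3 against 4.60, 11.6 and 7.12. All 4 were lower in 3 of 3 pairs with no overlap between groups, which adds no support, since the naming rule favoured such genes. Of 7 fibroblast genes tested 4 fell as well (Col1a1, Col1a2, Col3a1 and Dpt), beside a summed fibroblast level of 102 to 1397 CPM after PBS and 105 to 468 after bleomycin, whose part was not tested.

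Retnla had 4841, 1600.4 and 2592 CPM after PBS and 1494, 1079.8 and 2603 after bleomycin, and did not pass with or without the block (-0.79 ± 0.40 SE, adjusted p = 0.499 without, 0.167 with). The groups overlapped, and without the libraries labelled SARAWT PBS 1 and 3 the sign turned to 0.10 on the log2 scale. That value rests on SARAWT PBS 2 alone after PBS, where 24 of 32 gated cells had a shared barcode. Lpl had 573, 163 and 542 CPM after PBS and 697, 693 and 567 after bleomycin, higher in 3 of 3 pairs, and did not pass either (adjusted p = 0.568 without the block, 0.288 with).

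**Figure D5:**
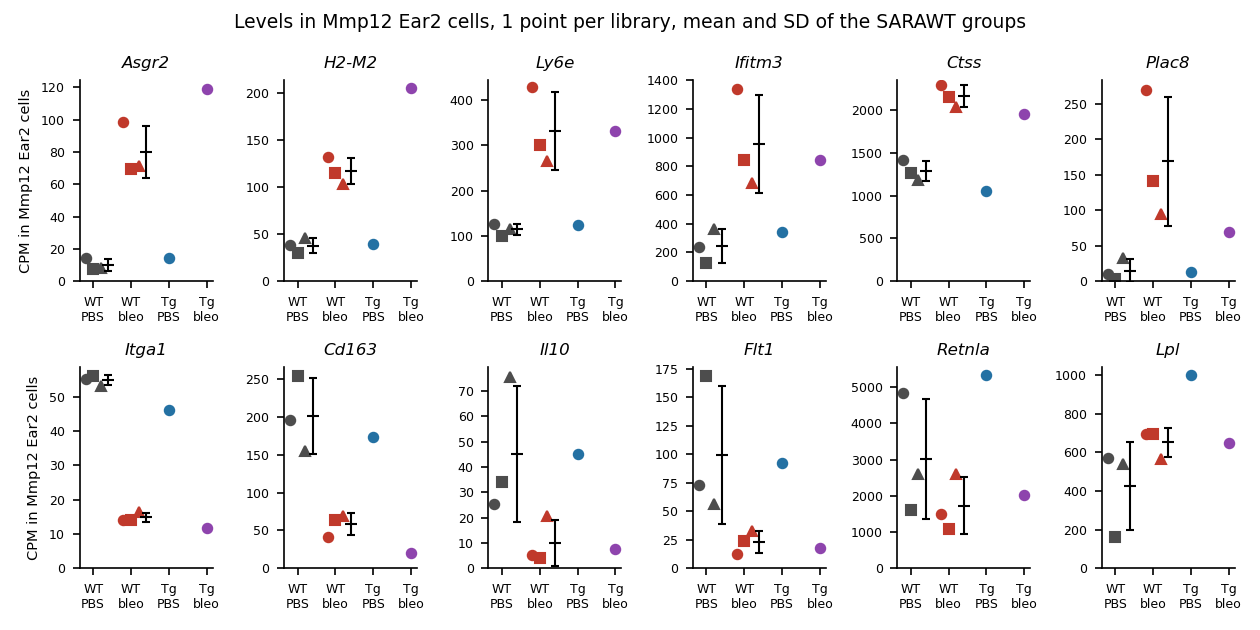
Levels of 12 genes in Mmp12 Ear2 cells, in CPM, with 1 point per library: SARAWT PBS, SARAWT bleomycin, SARATg PBS and SARATg bleomycin. Circles, squares and triangles are libraries 1, 2 and 3, and black marks are the mean and SD of the 3 SARAWT libraries. Asgr2, H2-M2, Ly6e, Ifitm3, Ctss and Plac8 are higher in each SARAWT bleomycin library than in each PBS library, Itga1, Cd163, Il10 and Flt1 are lower, and Retnla and Lpl overlap or vary within a group. Genes were named partly for a steady direction over libraries.

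Comparisons with SARATg used all 8 libraries and a term for the gene list each library was counted with. Each SARATg group was 1 library, so the spread came from the libraries labelled SARAWT alone, and single genes are given as values without a test. Between SARATg bleomycin and SARATg PBS, 30 of 12305 genes passed in that fit (0.244%), 15 higher (0.122%) and 15 lower (0.122%), and none without the covariate, where 503 had an unadjusted p under 0.05. After PBS and bleomycin, Cacna1a had 0.678 and 24.8 CPM, Mfge8, a bridge protein for the uptake of dying cells, 9.98 and 133, and Gcnt2, a glycosyltransferase, 12.0 and 96.5. Cd163 had 173 and 19.8 CPM and Il10 45.0 and 7.58. Of keratin and stromal genes Krt10 had 113 and 6.84 CPM and Clec3b 42.7 and 0.306. Summed over marker lists, keratinocyte genes had 467 and 119 CPM, fibroblast genes 7270 and 506, and muscle genes 476 and 36.0. Neutrophil genes went the other way, with 11.6 and 360 CPM, as did mast cell genes, with 9.11 and 45.6. The part of RNA from those cells was not tested.

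Between SARATg and SARAWT after bleomycin, no gene of 12305 passed in edgeR (0.0%, 439 with an unadjusted p under 0.05, 12 called by DESeq2), and with 1 SARATg library this does not show that the groups were alike. Mfge8 had 133 CPM in SARATg and 18.0, 25.8 and 22.6 in SARAWT. Retnla had 2021 CPM in SARATg, within the SARAWT range of 1079.8 to 2603. No gene passed the test of the difference between the bleomycin effects in the groups labelled SARATg and SARAWT (275 with an unadjusted p under 0.05, 7 called by DESeq2), which with 1 library per SARATg group does not show that the effects were alike.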

How the data were processed

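Single-cell UMI counts per gene were deposited by the authors as Cell Ranger matrices of raw counts, with no normalization, for sorted GFP+ skin and kidney cells. The submitters' processing notes name Cell Ranger 3.0.2, Seurat 2.3.4 and mm10, and the file headers give Cell Ranger 4.0.0 for libraries 1 and 2 of both SARAWT skin groups and 3.1.0 for the other 4. These used gene lists of 32286 and 31053 identifiers, and the 30406 shared identifiers were kept. The gate and the gene lists were chosen with earlier results of these data known. UMIs of a class were summed per library (at least 10 cells), filtered with filterByExpr, normalized by TMM and tested with edgeR 4.0.16 (quasi-likelihood, Benjamini-Hochberg over all genes at 0.05), and again with DESeq2 1.42.0. The SARAWT groups were fitted alone, the 4 groups together with the gene list as covariate, and classes within libraries with library as a block. Error bars on levels are over libraries, and CPM is UMIs per 1000000 of the class. Same-numbered SARAWT libraries deviated together (r of 0.360 to 0.634 over 3645 genes, other pairs -0.525 to 0.185), and they also share a gene list, so the replicate block is printed beside the bleomycin result. Deviations were taken from group means of these same data, so positive values in same-numbered pairs go with negative values in other pairs by construction. The labels do not say that same-numbered libraries were handled together. Doublets were called with scrublet (scanpy 1.11.5) at an expected 0.8% per 1000 cells and left in. T cells had at least 2 UMIs of Cd3e, Cd3d and Cd3g and 0 of Csf1r. By rule, named genes were up to 10 per direction with the largest change among called genes with at least 20 CPM and no overlap between groups (within libraries, the same sign in every library), up to 4 called members per list, and the gate genes and markers. From these, and from genes added with their values seen, the text gives a selection, and some are not reported here. Scripts were tested on simulated data. Other tools were Python 3.11.15 with scipy 1.17.1, and R 4.3.3.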

Additional observations from a re-analysis of the deposited data

Results flagged for a closer look

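Human ZFYVE9, which the comparisons did not use, was read in the gated cells of 4 libraries labelled SARAWT: 696 CPM in PBS 1, 209 in PBS 2, 76.1 in bleomycin 1 and 76.4 in bleomycin 2. Kidney libraries, which the comparisons did not use either, came by the labels from mice given aristolochic acid or vehicle 3 times a week for 3 weeks. There the same gate held 7.56% of cells in SARAWT aristolochic acid 1, above the range of 1.71% to 6.94% in 3 SARAWT vehicle libraries. It held 9.77% in the 1 SARATg aristolochic acid library, above the 3.85% to 4.10% of 2 SARATg vehicle libraries. The other SARAWT aristolochic acid libraries went down to 0.650%. Cells with Ear2 alone were 1.41 percentage points more frequent after bleomycin in SARATg, while they were less frequent in 3 of 3 SARAWT pairs, and this difference was not tested.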

How the results depend on the processing

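For bleomycin against PBS in SARAWT, 4 genes were called in the fit of the 2 groups, 125 by DESeq2, 183 without a filter on low counts, 2 without shared barcodes, 11 with the gene list as covariate and 142 with the replicate block. Without shared barcodes SARAWT PBS 2 had 8 gated cells, under the 10 needed, and left the fits between groups. Those counts therefore do not show the effect of shared barcodes alone. Leaving out 1 library gave 1 to 31. Leaving out the libraries labelled SARAWT PBS 1 and 3, chosen after seeing the data, moved the median of all genes by 0.14 (log2). For SARATg against SARAWT after bleomycin (0 genes), DESeq2 called 12, no filter 165, no shared barcodes 17 and single libraries left out 0 to 44. For SARATg bleomycin against SARATg PBS (30 genes), DESeq2 called 72, no filter 379, no gene list covariate 0, no shared barcodes 91 and single libraries left out 27 to 167. For the difference of the bleomycin effects (0 genes), DESeq2 called 7, no filter 108, no shared barcodes 4 and single libraries left out 0 to 21. Mmp12 only against Ear2 only cells gave 346 genes and, without a filter, 774.

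The difference in share of 1.07 points turned to -0.222 among Ptprc cells and -2.55 among Csf1r cells, and ran from -0.374 to 3.21 with 1 library left out. Its replicate block (sign-flip test over pairs) gave p = 0.75 by exact enumeration, where 0.25 is the smallest possible, and the block changed no call on shares. For Mmp12 only cells, leaving out 1 library (chosen after seeing the data) gave 4.11 to 7.10 points. Retnla changed sign in SARAWT without the libraries labelled PBS 1 and 3 (0.10), in SARATg against SARAWT without the gene list covariate (0.10), without shared barcodes (0.14) and with 1 library left out (-0.47 to 0.71), and in the difference of effects without shared barcodes (0.39). None of these Retnla values passed the test, and the cause was not tested. Of the values of named genes under alternatives, 640 kept their direction and side of the threshold, 44 came to pass, 33 no longer passed and 5 changed sign. Single SARATg libraries and the 32 gated cells of SARAWT PBS 2 limit the comparisons between groups.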
